A study of Homo sapiens with 15 samples.

Results

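NF-kappaB subunits, their regulators and their target genes were followed in multiple myeloma (MM) cells grown alone or with bone marrow stromal cells. The set is a list of 36 genes named by their place in the pathway. The rule uses no measured level, but the list was drawn up with earlier results of these data known. It holds 5 subunits, 5 inhibitors, 5 kinases, 5 adaptors, 4 brakes on the pathway, 4 ligands or receptors and 8 other targets. All 36 were found among the 20468 genes of each table. In MM.1S 30 of them were tested, in RPMI8226 also 30, and 29 were tested in both lines.

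The study asked how stromal cells change the transcriptome of MM cells and how much of that change soluble factors bring about. MM.1S and RPMI8226, established human MM lines, were each grown alone (monoculture, MONO), in the lower chamber together with HS5 cells (CO), or in an upper transwell set into such a well, above both HS5 and the MM cells of the lower chamber (TSW). HS5 is an established human marrow stromal line, so TSW cells shared its medium and CO cells also touched it. Per the study's methods, cells of the coculture conditions were first treated with trypsin, a step not described for MONO. The part of this step in the comparisons with MONO was not tested. MM cells of each condition were then stained for CD38 and CD90 and sorted before RNA was taken. There were 3 libraries per condition in MM.1S and 2 per condition in RPMI8226. The labels number these libraries but do not say that they came from separate cultures, so the p-values measure only the spread between these libraries, which may be technical. Each line is 1 model of the disease.

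NF-kappaB transcription factors are dimers that wait in the cytoplasm, bound by inhibitor proteins of the IkappaB family. In the canonical pathway the IKK kinase complex marks the inhibitor for destruction and dimers such as RELA with NFKB1 enter the nucleus. In the noncanonical pathway the kinase NIK, the product of MAP3K14, accumulates and drives processing of NFKB2, which then works with RELB. Many inhibitors and brakes are themselves target genes, and MM cells often carry the pathway switched on.

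Levels are given in RPKM, reads scaled to transcript length and to the library's total. Log2 fold changes (log2FC) are differences of log2(RPKM + 1), a scale that understates the change of low genes. A gene was tested if its mean over the line was at least 1 RPKM. It was called at an adjusted p under 0.05 by limma, a linear model across all genes, together with a fold change over 1.5 on that scale. Each line has its own table, and levels are not compared between lines.

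The libraries held 9008977 to 19050772 paired-end tags (PETs), the unit counted by the authors. The MONO libraries of MM.1S lay farther apart than those of any other group, with pairwise distances of 26.1 to 43.9 on the log2 scale over all genes tested, against at most 22.9 elsewhere. The ribosomal pseudogene RPS14P3 stood at 84.2 to 94.7 RPKM in 3 libraries, MONO replicate 2 of MM.1S and both TSW libraries of RPMI8226, and at 2.20 to 6.44 RPKM in the other 12. Its part in the results was not tested, and in RPMI8226 it cannot be told apart from TSW. Without MONO replicate 2 of MM.1S the calls among the 36 genes in that line numbered 4 higher and 4 lower for TSW and 6 higher and 3 lower for CO. Without MONO replicate 1 they numbered 5 and 4 for TSW and 6 and 3 for CO. The share of all genes called without these libraries was not counted, so these numbers are not read against a background. All 10 plasma cell markers were above 0 in every library of both lines, but their levels moved with the culture. They summed to 5008 to 5936 RPKM in MM.1S MONO, 3953 to 4086 in TSW and 3584 to 3907 in CO, and in RPMI8226 to 2400 to 2486, 4274 to 4456 and 4462 to 4540. In RPMI8226 6 of the 9 tested were called higher and 2 lower in TSW, and as many in CO. Of all genes tested there, 14.5% were called higher and 17.9% lower in TSW, and 16.4% and 22.9% in CO. In MM.1S 3 of the 10 were called higher and 2 lower in TSW, and 2 and 2 in CO. The shares of all genes there were 6.48% and 4.16% in TSW and 7.13% and 4.65% in CO. The part of these shifts in the results was not tested.

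The kappaB consensus, the site to which these dimers bind, was searched on both strands of the RefSeq promoters (GRCh38.p14, 250 bases before to 50 after each start). Promoters were listed for 31 of the 36 genes, and RELB, NFKBIE, IKBKB, CD40 and IER3 had none. A match was present in 22 of the 59 promoters of these genes and in 11.3% of the 35116 promoters of all genes. Counted by gene, 17 of 31 held a match in at least 1 promoter (54.8%), against 13.3% of all genes. The list was made of pathway genes and their targets, so these shares are a description and no test. The shares by gene rest on 59 promoters of 31 genes, against 35116 promoters of 27305 genes. Among genes with a listed promoter, a match was held in RPMI8226 by 6 of 9 called higher, 1 of 3 called lower and 6 of 14 not called, in TSW and in CO alike. In MM.1S TSW it was held by 3 of 4 called higher, 3 of 5 called lower and 7 of 16 not called, and in MM.1S CO by 3 of 5, 1 of 3 and 9 of 17. The following sites, 30 bases each with the matching letters in capitals, belong to genes on which the results below turn, including genes that were not called.
NFKB2 (chr10:102394462-102394491, plus strand): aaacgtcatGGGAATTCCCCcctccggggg
NFKB2 (chr10:102395674-102395703, plus strand): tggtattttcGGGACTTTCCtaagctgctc
BIRC3 (chr11:102317275-102317304, plus strand): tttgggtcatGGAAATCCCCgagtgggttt
BIRC3 (chr11:102317339-102317368, plus strand): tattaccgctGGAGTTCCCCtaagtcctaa
TNFAIP3 (chr6:137867188-137867217, plus strand): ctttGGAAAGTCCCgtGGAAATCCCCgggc
TNIP1 (chr5:151081057-151081086, minus strand): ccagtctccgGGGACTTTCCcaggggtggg
NFKBIZ (chr3:101827757-101827786, plus strand): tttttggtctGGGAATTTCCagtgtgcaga
CFLAR (chr2:201118609-201118638, plus strand): cgcggggggcGGGGAATTCCgcagacagga
NFKB1 (chr4:102501300-102501329, plus strand): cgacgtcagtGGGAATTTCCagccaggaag
NFKBIA (chr14:35404811-35404840, minus strand): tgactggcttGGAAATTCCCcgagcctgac
REL (chr2:60881518-60881547, plus strand): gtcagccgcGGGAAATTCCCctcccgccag
CD83 (chr6:14117712-14117741, plus strand): tggcgcgcaGGGAAGTTCCCgaacgcgcgg
All of these lie before a start site of the gene, between 21 bases (the second NFKB2 site) and 223 bases (NFKBIZ) upstream. The TNFAIP3 site holds a pair of matches apart from each other. The first NFKB2 site, the REL site and the CD83 site each hold 2 that overlap. A match describes the letters only and says nothing of binding in these cells. The genes with a match include NFKB1 and NFKBIA, which were called in no comparison. No match was found in the listed promoters of IKBKE, SOD2, TNFAIP2, TNFAIP8, TRAF1, BIRC2, TNIP2 and PLEK, all of which were called in a comparison.

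In MM.1S, TSW raised 4 of the 30 tested genes and lowered 5. Over all 10153 genes tested, 6.48% were called higher and 4.16% lower. The genes that rose were NFKBIZ, BIRC3, TNFAIP2 and CFLAR, and those that fell were REL, IKBKE, TNFAIP3, LTB and TNFAIP8. NFKBIZ and TNFAIP2 had a mean under 1 RPKM in MONO and passed the filter through TSW and CO, so their rise was bound to the filter and the 4, like the 6 in CO, cannot be read against the background. In CO 6 rose, the same 4 with IER3 and SOD2, and 3 fell, IKBKE, TNFAIP3 and TNFAIP8. The background for CO was 7.13% higher and 4.65% lower. The median log2FC of the 30 was -0.11 in TSW and -0.09 in CO, while that of all genes tested was 0.01 in both. The libraries did not overlap with MONO for 14 of the 30 in TSW and 18 in CO, and for 44.0% and 43.9% of all genes tested.

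In RPMI8226, TSW raised 11 of the 30 tested genes and lowered 3, where the background was 14.5% higher and 17.9% lower of 10319 genes. The genes that rose were NFKB2, RELB, NFKBIE, NFKBIZ, TRAF1, BIRC3, TNFAIP3, TNIP1, TNIP2, TNFAIP2 and CFLAR. Those that fell were REL, IKBKE and SOD2. NFKBIZ was the 1 gene among the 11 with a MONO mean under 1 RPKM. It passed the filter through TSW and CO, so its rise was bound to the filter. The 11, like the 12 in CO, thus hold 1 gene that cannot be read against the background. In CO 12 rose and 3 fell (NFKBIB, IKBKE and PLEK), with a background of 16.4% higher and 22.9% lower. BIRC2 and IER3 were called higher there, and TNIP2, at a log2FC of 0.47, was under the fold threshold. The median log2FC of the 30 was 0.15 in TSW and 0.24 in CO, against -0.08 and -0.09 for all genes tested. With 2 libraries per group, 24 of the 30 did not overlap with MONO in TSW and 24 in CO, as did 82.9% and 87.0% of all genes tested, so a lack of overlap in RPMI8226 is the common case. TSW and CO were compared with the same MONO libraries, so their calls are not independent of each other.

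**Figure D1:**
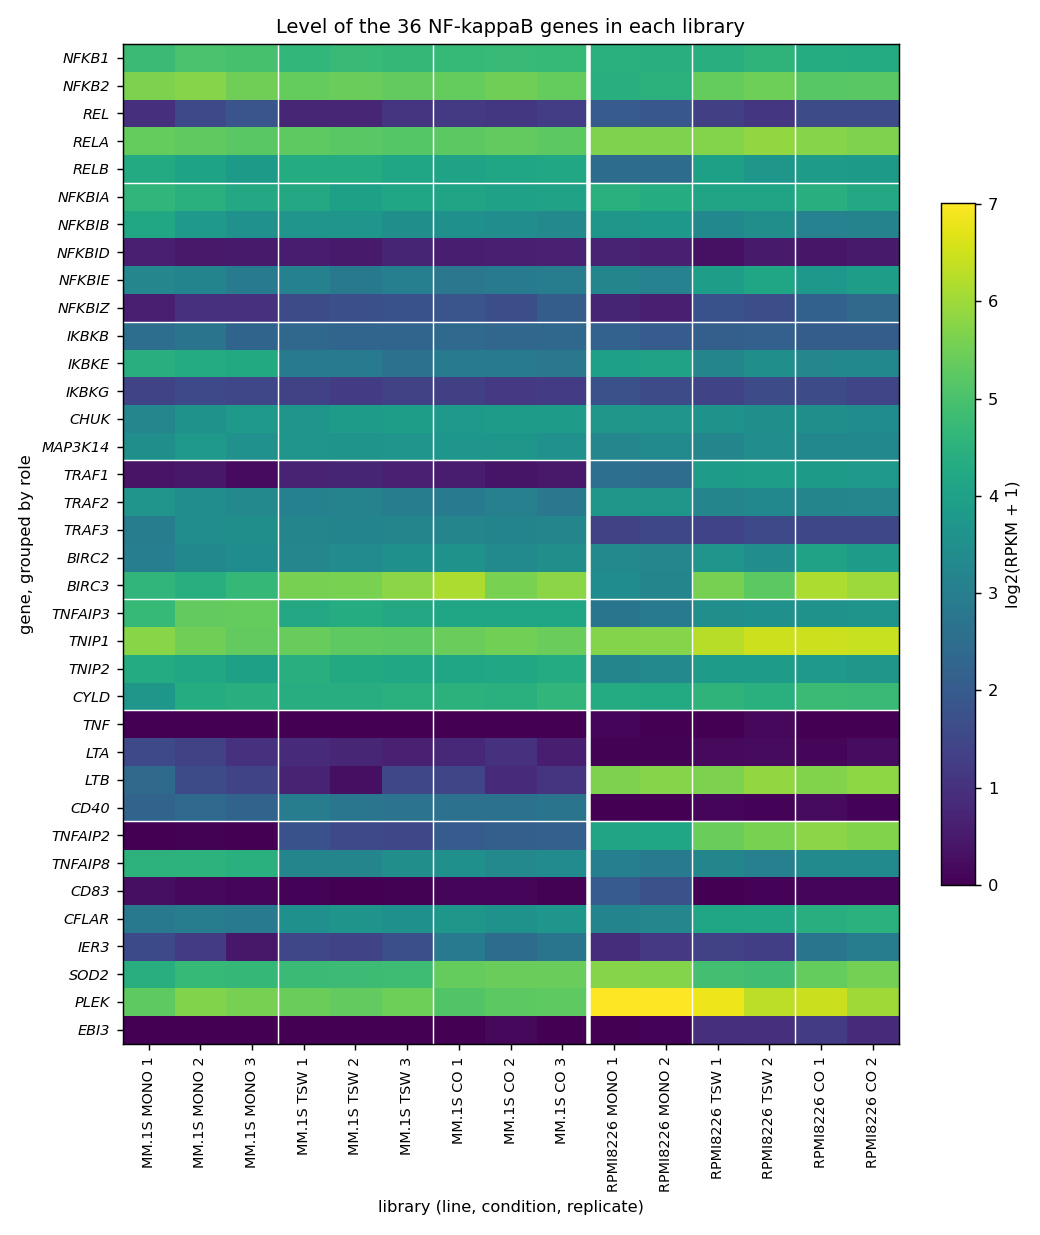
Level of each of the 36 genes (rows, grouped by role from subunits at the top to other targets at the bottom) in each of the 15 libraries (columns), as log2(RPKM + 1). BIRC3 brightens from MONO to TSW and CO in both lines, NFKB2 and RELB brighten in RPMI8226, and TNF is dark throughout.

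Among the subunits, the noncanonical pair rose in RPMI8226 and the canonical pair was called in neither line. NFKB2 (chr10:102394110-102402529, the precursor of the noncanonical partner of RELB) stood at 20.6 and 21.6 RPKM in RPMI8226 MONO, 40.1 and 43.5 in TSW, and 35.8 and 36.2 in CO. RELB (chr19:45001464-45038192) stood at 4.57 and 4.59 in MONO, 14.8 and 12.2 in TSW, and 13.5 and 13.2 in CO. Every library with HS5 was above both MONO libraries for both genes. The log2FC of NFKB2 in TSW was 0.95 ± 0.07 (SE, adjusted p = 1.48e-06 by limma) and that of RELB 1.37 ± 0.10 (adjusted p = 9.27e-07), a 2.95-fold rise of the RELB mean. In CO they were 0.74 ± 0.07 and 1.36 ± 0.10.

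In MM.1S neither gene of the pair was called. NFKB2 stood at 48.5, 52.0 and 44.1 RPKM in MONO, 40.1, 41.3 and 39.0 in TSW, and 39.9, 43.7 and 39.8 in CO. All libraries with HS5 were below the lowest MONO library, but the log2FC of -0.26 in TSW had an adjusted p of 0.0533 by limma and a 95% interval of -0.45 to -0.06. RELB overlapped between the conditions, at 13.3 to 18.5 RPKM in MONO, 16.8 to 19.0 in TSW and 15.3 to 17.3 in CO.

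RELA, the main canonical activator, and NFKB1, its usual partner, were called nowhere. RELA ranged from 34.8 to 40.2 RPKM over all MM.1S libraries and from 49.0 to 58.1 over those of RPMI8226. Its log2FC in TSW was -0.07 in MM.1S (95% interval -0.24 to 0.11) and 0.13 in RPMI8226 (-0.05 to 0.31). NFKB1 was 0.83 times its MONO mean in MM.1S TSW, with an adjusted p of 0.0611 by limma, and 1.04 times in RPMI8226 TSW.

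REL, the subunit most tied to lymphocytes, was low and fell in TSW. In RPMI8226 it stood at 3.07 and 2.75 RPKM in MONO, 1.51 and 1.18 in TSW, and 2.10 and 2.03 in CO. The TSW libraries were lowest and did not overlap with MONO (log2FC -0.74 ± 0.11, adjusted p = 0.000166 by limma). In CO the log2FC was -0.35 and under the fold threshold. In MM.1S it stood at 0.96, 1.93 and 2.59 in MONO and at 0.69, 0.68 and 1.08 in TSW. These values overlap, and the call (log2FC -0.60 ± 0.19, adjusted p = 0.0354) was lost on leaving out any 1 of 7 libraries (all 3 CO libraries, MONO replicate 2 or 3, TSW replicate 1 or 2), with adjusted p of 0.0515 to 0.117 by limma.

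The inhibitors split by member. NFKBIA, the classical feedback inhibitor IkappaB-alpha, was not called in any comparison. It stood at 23.7, 20.9 and 17.7 RPKM in MM.1S MONO, 17.7, 14.8 and 16.6 in TSW, and 16.1, 15.3 and 15.6 in CO. RPMI8226 had 20.9 and 19.3 in MONO, 16.2 and 16.1 in TSW, and 20.6 and 17.7 in CO. Its 4 log2FC against MONO were all below 0, from -0.38 in MM.1S CO to -0.07 in RPMI8226 CO.

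NFKBIZ (chr3:101827990-101861022), an atypical nuclear member that acts with NFKB1 on secondary response genes, rose in both lines. In MM.1S it stood at 0.53, 1.01 and 0.99 RPKM in MONO, 2.09, 2.29 and 2.40 in TSW, and 2.62, 2.22 and 3.22 in CO. RPMI8226 had 0.65 and 0.55 in MONO, 2.39 and 2.23 in TSW, and 3.53 and 4.38 in CO. MONO was lowest without overlap in both lines, and the log2FC were 0.83 ± 0.13 and 1.003 ± 0.13 in MM.1S and 1.05 ± 0.11 and 1.63 ± 0.11 in RPMI8226. In both lines NFKBIZ was near or under 1 RPKM in MONO and passed the filter through TSW and CO. An annotated exon of NXPE3 on the same strand shares bases with NFKBIZ.

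NFKBIE, the IkappaB-epsilon gene, rose in RPMI8226 from 8.26 and 7.64 RPKM in MONO to 14.4 and 16.6 in TSW and 12.4 and 14.1 in CO. The log2FC in TSW was 0.88 ± 0.10 (adjusted p = 2.36e-05 by limma) and in CO 0.67 ± 0.10, which became 0.58 and left the call without CO replicate 2. In MM.1S it kept between 5.89 and 8.43 RPKM and was not called. NFKBIB, IkappaB-beta, was lower in RPMI8226 CO at 7.67 and 7.75 RPKM than in MONO at 12.2 and 12.4 (log2FC -0.61 ± 0.09), a call lost at -0.51 when libraries were scaled by the median of ratios. Its exons share bases with SIRT2 on the opposite strand. NFKBID was at 0.23 to 0.64 RPKM in all libraries and was not tested.

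Of the kinases 1 moved, and it fell in both lines. IKBKE (chr1:206470476-206496889), an IKK-related kinase outside the core complex, stood at 20.5, 18.9 and 18.3 RPKM in MM.1S MONO, 6.62, 6.59 and 5.09 in TSW, and 6.28, 6.27 and 5.93 in CO. The levels in RPMI8226 were 14.4 and 15.4 in MONO, 8.15 and 10.2 in TSW, and 8.56 and 8.62 in CO. No library with HS5 reached MONO in either line. The log2FC in MM.1S was -1.52 ± 0.11 in TSW (adjusted p = 3.41e-06 by limma) and -1.50 ± 0.11 in CO. In RPMI8226 it was -0.65 ± 0.10 in TSW and -0.73 ± 0.10 in CO. The TSW call of RPMI8226 fell under the fold threshold without TSW replicate 1 (log2FC -0.50) and under median-of-ratios scaling (-0.57).

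The catalytic subunits CHUK and IKBKB, the scaffold IKBKG and the noncanonical kinase MAP3K14 were called in no comparison. MAP3K14 ranged from 10.3 to 12.7 RPKM in MM.1S and from 8.30 to 9.84 in RPMI8226, with log2FC between -0.05 and 0.04 over the 6 comparisons. CHUK stood at 8.45, 11.2 and 12.9 RPKM in MM.1S MONO and at 11.9, 13.6 and 14.4 in TSW, which overlap, and IKBKB ranged from 3.13 to 5.51 over both lines. IKBKG, at 1.25 to 2.32 RPKM, has a near-identical pseudogene copy, so its level is uncertain.

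Of the adaptors, BIRC3 (chr11:102317484-102339403, a ubiquitin ligase that restrains NIK and blocks cell death) had the largest log2FC of the 30 genes tested in RPMI8226, in TSW and in CO. It stood at 9.60 and 8.21 RPKM in RPMI8226 MONO, 46.5 and 37.0 in TSW, and 70.6 and 62.3 in CO. In MM.1S it stood at 23.6, 19.99 and 24.3 in MONO, 46.9, 47.9 and 54.2 in TSW, and 69.9, 48.0 and 54.9 in CO. MONO was lowest in both lines, with a 4.69-fold mean rise in RPMI8226 TSW (log2FC 2.10 ± 0.12, adjusted p = 1.36e-07 by limma) and a 2.20-fold rise in MM.1S TSW (log2FC 1.10 ± 0.14, adjusted p = 0.000197). In CO the log2FC were 2.77 ± 0.12 and 1.30 ± 0.14.

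TRAF1, an adaptor that is itself a well known NF-kappaB target, rose in RPMI8226 from 4.90 and 4.63 RPKM in MONO to 13.4 and 14.02 in TSW and 13.1 and 12.5 in CO (log2FC 1.35 ± 0.08 and 1.26 ± 0.08). In MM.1S it was under 1 RPKM and not tested, at 0.29, 0.37 and 0.15 in MONO and 0.61, 0.66 and 0.57 in TSW. Its levels in MM.1S CO, 0.45, 0.31 and 0.40, overlap with MONO. BIRC2, the neighbour and paralogue of BIRC3, was called in RPMI8226 CO alone, at 15.4 and 13.8 RPKM against 8.85 and 8.46 in MONO (log2FC 0.69 ± 0.10). TRAF2 lay lower with HS5 in both lines, at log2FC of -0.56 to -0.41, but under the fold threshold. TRAF3, which targets NIK for destruction, was called nowhere, and its log2FC in RPMI8226 TSW was 0.04 (95% interval -0.20 to 0.28).

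Among the brakes, TNFAIP3 moved in opposite directions in the 2 lines. TNFAIP3 (chr6:137866349-137883312), the ubiquitin-editing enzyme A20, stood at 24.7, 39.5 and 39.7 RPKM in MM.1S MONO, 17.8, 19.3 and 17.7 in TSW, and 16.3, 16.6 and 16.4 in CO. The RPMI8226 levels were 5.60 and 6.22 in MONO, 10.1 and 10.5 in TSW, and 10.9 and 11.5 in CO. MONO was highest in MM.1S and lowest in RPMI8226, without overlap in either. The log2FC in TSW was -0.86 ± 0.15 in MM.1S (adjusted p = 0.0024 by limma) and 0.71 ± 0.09 in RPMI8226 (adjusted p = 4.88e-05). MONO replicate 1 of MM.1S was the lowest of its group and still above all 6 libraries with HS5.

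The partners of A20 rose in RPMI8226 alone among the calls. TNIP1, an A20-binding inhibitor, went from 51.9 and 52.4 RPKM in MONO to 76.3 and 88.7 in TSW and 87.6 and 85.4 in CO. TNIP2 went from 8.33 and 8.94 to 13.6 and 13.7 in TSW and 12.5 and 12.2 in CO. The TSW log2FC were 0.65 ± 0.08 and 0.61 ± 0.08, and they fell under the threshold without TSW replicate 2 (TNIP1, 0.54) or MONO replicate 1 (TNIP2, 0.56). CYLD, a deubiquitinase, was called in neither line and reached a log2FC of 0.45 in RPMI8226 CO.

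**Figure D2:**
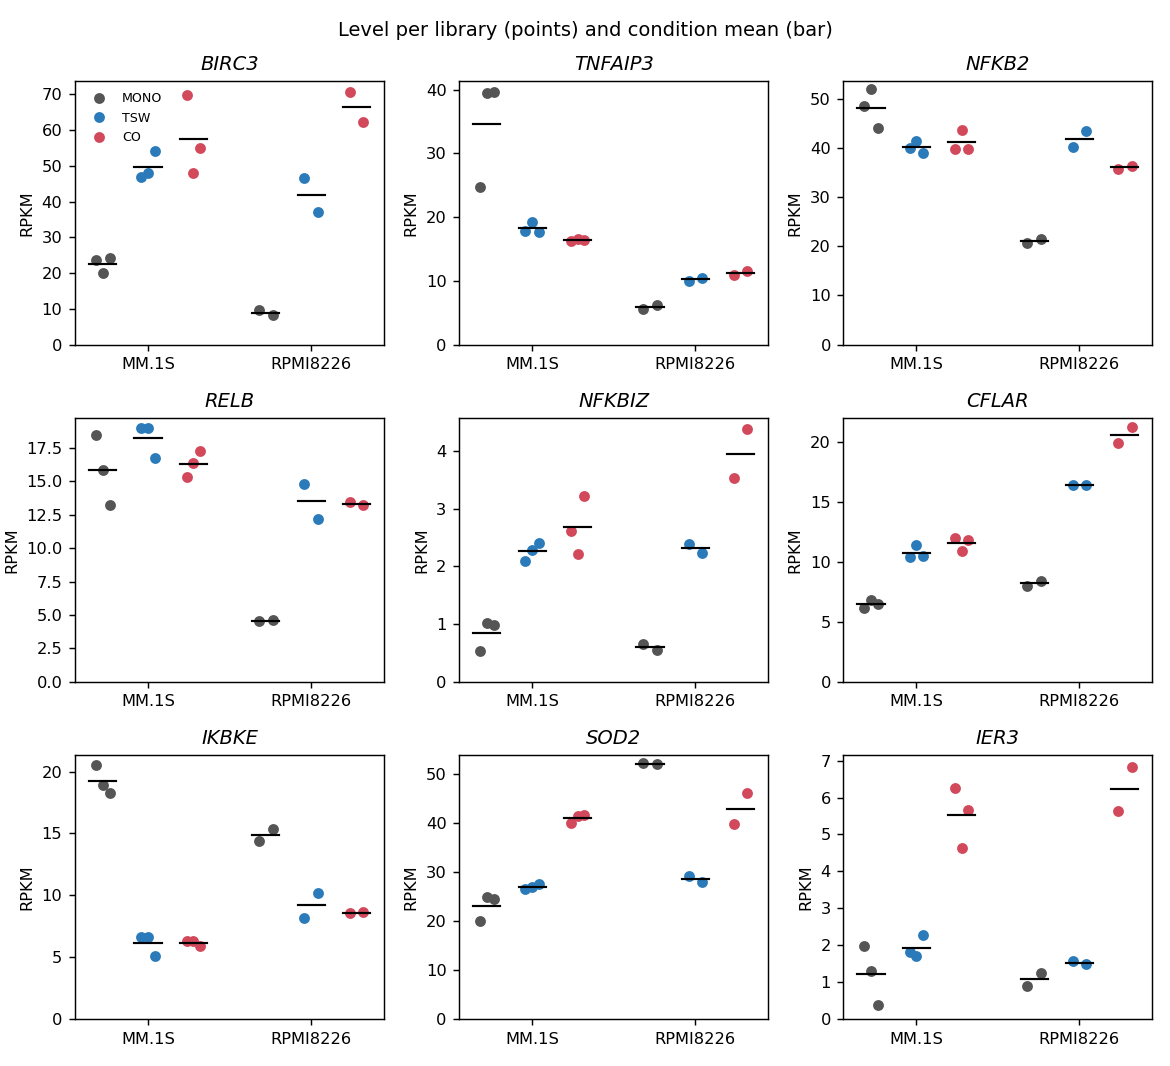
RPKM of 9 genes in every library (points) with the mean of each condition (bar), for MM.1S on the left and RPMI8226 on the right of each panel. BIRC3, NFKBIZ and CFLAR are lowest in MONO in both lines, IKBKE is highest there, TNFAIP3 is highest in MONO in MM.1S and lowest in RPMI8226, and IER3 stands out in CO.

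Of the 4 ligands or receptors, 2 were tested in MM.1S and 1 in RPMI8226. TNF, the canonical ligand, had no PET in any MM.1S library, and in RPMI8226 the highest library stood at 0.10 RPKM. LTB, a membrane ligand of the lymphotoxin receptor, ranged from 48.1 to 58.1 RPKM in RPMI8226 and was not called (log2FC 0.08 in TSW, 95% interval -0.13 to 0.29). In MM.1S it stood at 4.35, 2.11 and 1.69 in MONO, 0.63, 0.22 and 1.79 in TSW, and 1.74, 0.80 and 1.13 in CO. The MM.1S values overlap, and the TSW call (log2FC -1.004 ± 0.31, adjusted p = 0.0347 by limma) was lost without MONO replicate 1 (adjusted p = 0.0763), TSW replicate 1 (0.102), TSW replicate 2 (0.136) or CO replicate 3 (0.0539).

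CD40, a receptor that drives both branches of the pathway, was tested in MM.1S alone. It stood at 3.73, 4.24 and 3.66 RPKM in MONO, 6.69, 5.72 and 5.42 in TSW, and 5.13, 5.18 and 5.495 in CO. All libraries with HS5 exceeded MONO, and the log2FC of 0.51 in TSW (adjusted p = 0.00442 by limma) was under the fold threshold. In RPMI8226 it had no PET in MONO and at most 0.16 RPKM elsewhere. LTA, a secreted lymphotoxin, was under the filter in both lines, at 1.93, 1.56 and 0.99 RPKM in MM.1S MONO and 0.78, 0.69 and 0.56 in TSW.

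Of the other targets, TNFAIP2 and CFLAR rose in both lines. TNFAIP2, first known as a gene induced by TNF, had 3 PETs in all 3 MM.1S MONO libraries together and 460 in TSW. The ratio was 149 per sequenced PET, with an exact 95% counting interval of 50.6 to 724 that covers counting error only. TNFAIP2 stood at 2.38, 1.93 and 1.80 RPKM in MM.1S TSW and 3.12, 3.35 and 3.42 in CO, and passed the filter there through those libraries alone. RPMI8226 had 16.1 and 16.4 in MONO, 41.5 and 47.6 in TSW, and 54.7 and 50.7 in CO. The log2FC in RPMI8226 was 1.40 ± 0.08 in TSW and 1.64 ± 0.08 in CO, and no libraries overlapped with MONO in either line.

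CFLAR, the caspase inhibitor c-FLIP, stood at 6.16, 6.83 and 6.51 RPKM in MM.1S MONO, 10.5, 11.4 and 10.5 in TSW, and 12.0, 10.9 and 11.8 in CO. The levels in RPMI8226 were 8.01 and 8.46 in MONO, 16.4 and 16.5 in TSW, and 19.9 and 21.3 in CO. MONO was lowest without overlap in both lines. The log2FC in TSW was 0.65 ± 0.09 in MM.1S (adjusted p = 0.000419 by limma) and 0.92 ± 0.08 in RPMI8226 (adjusted p = 3.43e-06).

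TNFAIP8, a cell survival gene, fell in MM.1S from 22.3, 22.3 and 21.1 RPKM in MONO to 8.22, 8.14 and 10.0 in TSW and 10.6, 8.90 and 9.39 in CO (log2FC -1.23 ± 0.10 and -1.11 ± 0.10). In RPMI8226 it was called in no comparison, at 7.18 and 6.40 in MONO and 9.32 and 9.29 in CO (log2FC 0.41). PLEK, the pleckstrin gene, was called lower in RPMI8226 CO, at 86.2 and 64.0 RPKM against 127 and 128 in MONO, and without CO replicate 2 the log2FC changed from -0.77 to -0.56, under the threshold. In MM.1S it ranged from 33.5 to 50.1 RPKM and was not called.

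CD83 and EBI3 lay under the filter and were not tested, but their PET counts differed between the conditions of RPMI8226. CD83, a marker of activated B and dendritic cells, had 182 PETs in RPMI8226 MONO (3.02 and 2.33 RPKM), 2 in TSW (0 and 0.04 RPKM) and 7 in CO (0.07 and 0.08 RPKM), so that it was 122 times higher in MONO than in TSW (exact 95% counting interval 33.2 to 1012). EBI3, a subunit of heterodimeric cytokines, had 1 PET in MONO, 44 in TSW (0.92 and 0.95 RPKM) and 48 in CO (1.32 and 0.82 RPKM), a ratio of 32.9 for TSW (5.61 to 1330). These intervals cover counting error only. In MM.1S CD83 was at most 0.22 RPKM and EBI3 had PETs in CO replicate 2 alone.

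Direct contact was read from CO vs. TSW. In MM.1S 1 of the 30 genes rose, SOD2, and none fell, where 0.374% of all genes were called higher and 0.0394% lower. By limma without adjustment 3 of the 30 had a p under 0.05, as did 4.43% of all genes tested. In RPMI8226 2 rose, BIRC3 and IER3, and none fell, with 1.90% and 2.39% of all genes called, and 13 of the 30 (43.3%) had an unadjusted p under 0.05, near the 40.4% of all genes tested. With voom on recovered PETs the counts in MM.1S were 1 and 0, against 0.394% and 0.0492% of all genes under voom. In RPMI8226 they were 4 and 0, against 3.12% and 3.39%. By limma, listed stromal markers made up 15 of the 38 genes called higher in MM.1S and 9 of the 196 in RPMI8226. The study left stromal signature genes out of its analyses, but they were kept here, so the shares of all genes include them.

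SOD2 (chr6:159669069-159762281), the mitochondrial superoxide dismutase, stood at 19.9, 24.9 and 24.5 RPKM in MM.1S MONO, 26.5, 26.9 and 27.4 in TSW, and 40.01, 41.4 and 41.5 in CO. CO was above all other libraries (log2FC against MONO 0.81 ± 0.10, adjusted p = 0.000151 by limma). The CO vs. TSW log2FC of 0.59 ± 0.10 (adjusted p = 0.0232 by limma) lost its call without any 1 of the 6 CO and TSW libraries (adjusted p of 0.0969 to 0.160), and fell to 0.58 under median-of-ratios scaling. RPMI8226 had 52.2 and 51.9 in MONO, 29.2 and 28.0 in TSW, and 39.7 and 46.0 in CO. TSW was lowest there (log2FC against MONO -0.84 ± 0.08, adjusted p = 8.11e-06). The CO vs. TSW log2FC in RPMI8226 was 0.56 ± 0.08 (adjusted p = 0.0012 by limma), under the fold threshold. The exons of SOD2 share bases with ACAT2 and WTAP on the opposite strand. Whether counting used strand is not given in the sources used here.

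IER3, an immediate early survival gene, was low without contact and higher in CO in both lines. In RPMI8226 it stood at 0.905 and 1.25 RPKM in MONO, 1.57 and 1.48 in TSW, and 5.63 and 6.82 in CO. In MM.1S it stood at 1.97, 1.31 and 0.365 in MONO, 1.81, 1.70 and 2.27 in TSW, and 6.26, 4.63 and 5.66 in CO. CO exceeded all other libraries in each line, with a log2FC against MONO of 1.62 ± 0.23 in MM.1S and 1.80 ± 0.12 in RPMI8226. The CO vs. TSW log2FC was 1.51 ± 0.12 in RPMI8226 (adjusted p = 3.47e-05 by limma) and 1.15 ± 0.23 in MM.1S (adjusted p = 0.0854). BIRC3 in RPMI8226 had a log2FC of 0.67 ± 0.12 (adjusted p = 0.00293), lost without CO replicate 1 (adjusted p = 0.0622) or, by size, without TSW replicate 2 (log2FC 0.50).

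Stromal marker genes also moved with CO. By the study's account a small share of HS5 cells was left among the MM cells sorted from the lower chamber. Of 30 listed markers 12 were at 0 in every MONO library of MM.1S, among them COL1A2, COL3A1, MMP1, MMP3 and TFPI2, and these 12 summed to 0 RPKM in TSW and to 103 to 124 RPKM in CO. In RPMI8226 17 were at 0 in every MONO library, and they summed to 0.07 RPKM in TSW and to 80.1 to 119 RPKM in CO. The whole list summed to 30.6 to 34.5 RPKM in MM.1S MONO, 23.4 to 24.8 in TSW and 167 to 200 in CO. In RPMI8226 it summed to 4049 to 4374 in MONO, 1708 to 1994 in TSW and 2131 to 2338 in CO, nearly all of it FN1. THY1, which encodes the sorted marker CD90, was at 0.45 to 0.57 RPKM in MM.1S CO and 0.08 to 0.11 in RPMI8226 CO. The part of these markers in the CO values of IER3, SOD2, BIRC3 and the other genes was not tested. In bulk RNA, fewer cells of a type and less RNA per cell cannot be told apart.

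**Figure D3:**
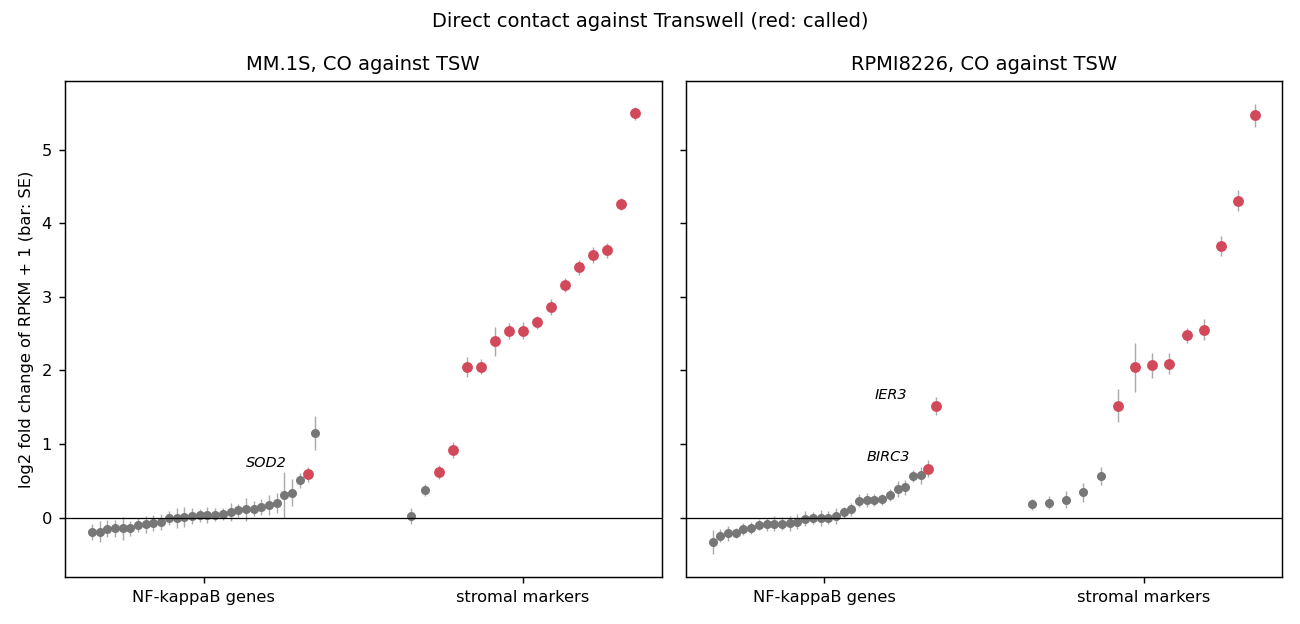
Log2 fold change of RPKM + 1 between CO and TSW for the 30 tested NF-kappaB genes and for the tested stromal markers (17 in MM.1S, 14 in RPMI8226), sorted by size, with SE bars and called genes in red. Most NF-kappaB genes lie near 0, SOD2 in MM.1S and BIRC3 and IER3 in RPMI8226 are called, and most stromal markers lie above 0.5, many of which passed the filter through CO alone.

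The responses of the lines were compared in a joint fit of all 15 libraries, as the log2FC in MM.1S minus that in RPMI8226. For TSW vs. MONO 10 of the 29 genes differed at an adjusted p under 0.05, where 38.5% of 9397 genes did. For CO vs. MONO 14 differed, with a background of 44.5%. For CO vs. TSW none did by limma (1 at an unadjusted p under 0.05), with a background of 0.138%. The shares among these genes, 10 of 29 and 14 of 29, lie near their backgrounds. By direction, the difference was below 0 for 9 of the 29 in TSW, against 15.1% of all genes, and for 11 of the 29 in CO, against 15.9%. It was above 0 for 1 in TSW and 3 in CO, against 23.4% and 28.5% of all genes.

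On the scale of log2(RPKM + 1), the largest difference was that of TNFAIP3, at -1.56 ± 0.21 in TSW (adjusted p = 7.99e-05 by limma) and -1.82 ± 0.21 in CO. TNFAIP8 followed at -1.40 ± 0.15 and -1.52 ± 0.15, falling in MM.1S and not in RPMI8226. NFKB2 (-1.21 ± 0.12 in TSW), RELB (-1.17 ± 0.17) and NFKBIE (-1.01 ± 0.17) rose in RPMI8226 with no call in MM.1S. BIRC3 rose in both lines and more in RPMI8226, with differences of -1.001 in TSW and -1.47 in CO. SOD2 went the other way, 1.06 ± 0.14 higher in MM.1S in TSW and 1.09 ± 0.14 in CO. For TNFAIP2, with 3 PETs in MM.1S MONO, log2(RPKM + 1) understates the rise in that line. Its CO to MONO ratio was 240 per sequenced PET in MM.1S (exact 95% interval 81.8 to 1165, counting error only). In RPMI8226 the ratio of mean RPKM was 3.25. On the log2 scale the differences of CHUK (0.50, adjusted p = 0.0422 by limma), TNFAIP2 (0.45, 0.018), NFKBIZ (-0.63, 0.0171) and TNIP2 (-0.43, 0.0264) in CO depended on single libraries. Each lost its call on leaving out CO replicate 2 of RPMI8226, where their adjusted p were 0.129, 0.0811, 0.0904 and 0.0594. The TSW difference of TNIP2 (-0.50, adjusted p = 0.0151 by limma) was lost without MONO replicate 1 of RPMI8226 (adjusted p = 0.0679).

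**Figure D4:**
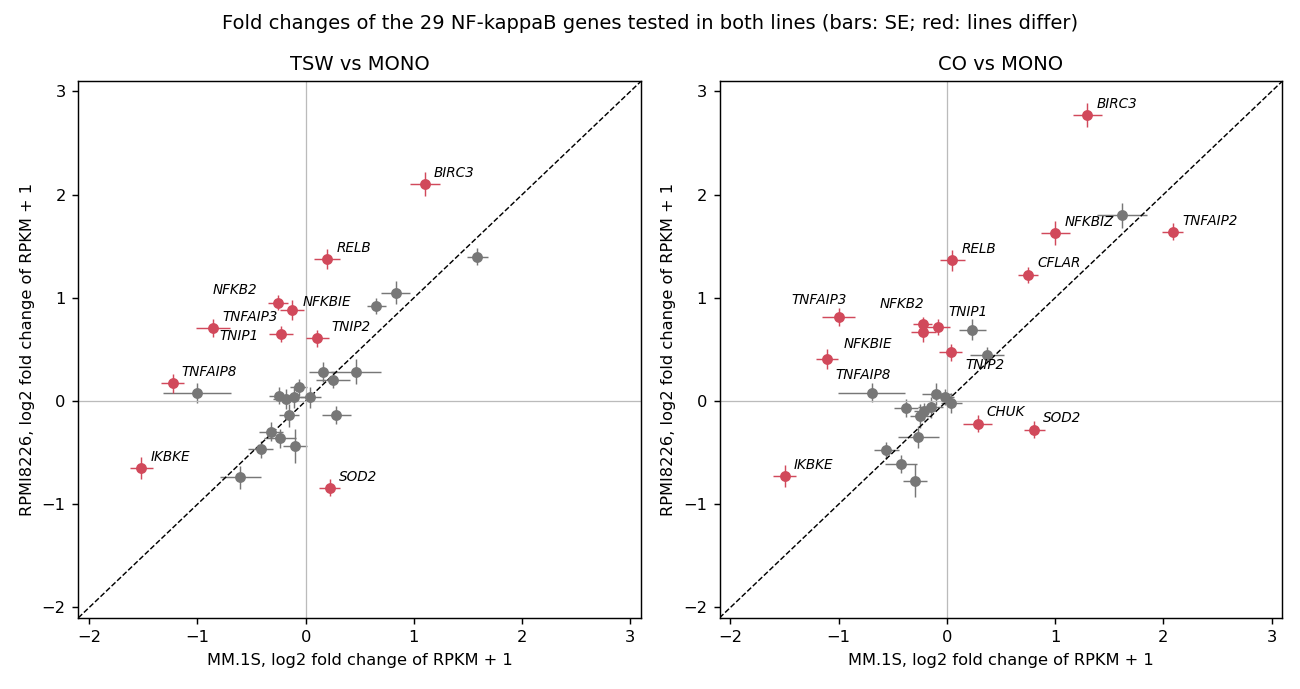
Log2 fold change of RPKM + 1 against MONO in MM.1S (x axis) and RPMI8226 (y axis) for the 29 genes tested in both lines, for TSW on the left and CO on the right, with SE bars. Genes in red differ between the lines (10 and 14), the dashed line marks equal change, and TNFAIP3 lies in the quadrant that is lower in MM.1S and higher in RPMI8226.

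Other genes of the pathway were counted from lists. Of 38 further receptors, adaptors and regulators 32 were tested in each line. In MM.1S 1 rose (3.12%) and 4 fell (12.5%) in both TSW and CO, where the backgrounds of all genes given above were 6.48% and 4.16% in TSW and 7.13% and 4.65% in CO. None were called for CO vs. TSW by limma or voom, and 1 had an unadjusted p under 0.05 by limma. BCL3, a nuclear IkappaB protein, was the one that rose (log2FC 1.83 ± 0.11 in TSW and 1.63 ± 0.11 in CO), and TNFRSF17, the receptor BCMA of plasma cells, fell most (-1.80 ± 0.14 and -2.14 ± 0.14). In RPMI8226 5 rose (15.6%) and 4 fell (12.5%) in TSW, against 14.5% and 17.9% of all genes, and 6 rose (18.8%) and 3 fell (9.38%) in CO, against 16.4% and 22.9%. The shares that rose lie near the background. None were called for CO vs. TSW by limma and 1 by voom, with 15 (46.9%) at an unadjusted p under 0.05 by limma, near the 40.4% of all genes. BCL3 rose there by 3.04 ± 0.09 in TSW and TNFRSF17 fell by 3.50 ± 0.13 on the log2 scale. The median log2FC of this list in MM.1S was 0.0005 in TSW and -0.04 in CO, against 0.01 in both for all genes tested. In RPMI8226 it was 0.12 in TSW and 0.26 in CO, against -0.08 and -0.09 for all genes tested. TRADD, the adaptor of the TNF receptor, rose by 1.29 ± 0.09 and TNFRSF8, which encodes CD30, fell by 1.53 ± 0.14 in TSW.

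Of 40 further target genes 23 were tested in MM.1S and 27 in RPMI8226. In MM.1S 9 rose and 5 fell in TSW (39.1% and 21.7%, against 6.48% and 4.16% of all genes), with CCL2 among the 9 under 1 RPKM in MONO. In CO 10 rose and 4 fell, and 3 of the 10 (CCL2, CXCL8 and IL1B) were under 1 RPKM in every MONO library, so the count cannot be read against the 7.13% and 4.65% of all genes. Between TSW and CO 3 rose and 1 fell, against 0.374% and 0.0394% of all genes, but CXCL8 and IL1B, both among the 3, were under 1 RPKM in every MONO and TSW library and passed the filter through CO alone. ICAM1, an adhesion molecule, rose by 2.94 ± 0.10 in TSW, while the chemokine gene CCL5 fell by 2.46 ± 0.15. In RPMI8226 TSW CCL5 rose, by 1.61 ± 0.08. In RPMI8226 13 of the targets rose and 4 fell in TSW (48.1% and 14.8%, against 14.5% and 17.9% of all genes), with CXCL8 among the 13 under 1 RPKM in MONO and WNT10A among the 4 under 1 RPKM in TSW and CO. In CO 20 rose and 4 fell, and 7 of the 20 were under 1 RPKM in every MONO library, so their rise was bound to the filter and the count cannot be read against the background. The median log2FC of these targets was 0.26 in MM.1S TSW and 0.50 in RPMI8226 TSW, against 0.01 and -0.08 for all genes tested. SAT1, a polyamine enzyme, had the largest log2FC of these targets in RPMI8226 TSW (3.64 ± 0.06). The ratio of mean RPKM was higher for CXCL8, with 5 PETs in MONO, at 34.5 against 12.6 for SAT1. Between TSW and CO of RPMI8226 7 were called higher. All of them but CXCL8 were under 1 RPKM in every MONO and TSW library and passed the filter through CO alone, so their direction was fixed by the filter and their number is no result. Levels of 2 genes of secreted factors, chosen after their values were seen, are given as a description. CXCL8 went from 3.42 to 3.66 RPKM in TSW to 42.7 to 67.9 in CO, and IL6 had no PET in TSW and 6.25 to 6.44 RPKM in CO. The stromal markers above moved with these values, and their part in them was not tested.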

How the data were processed

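RNA-Seq libraries of MM.1S (3 per condition) and RPMI8226 (2 per condition) in MONO, TSW and CO were analysed. Per the labels the submitters' processing notes name Subread, featureCounts and hg38. The authors counted PETs on RefSeq transcripts and deposited log2 values of RPKM + 1 with 0.0001 added, which was subtracted here. The smallest steps between a gene's values gave the worth of 1 PET, from which PET numbers were worked out (100% of values above 0 within 0.05 of a whole number) for depth, counting intervals and voom.

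Tests were made with limma 3.58.1 (mean-variance trend) in R 4.3.3 on log2(RPKM + 1), with the 3 conditions of a line in 1 fit, leaving out genes whose mean was under 1 RPKM, Benjamini-Hochberg adjustment over all genes tested, and calls at 0.05 and a fold change over 1.5. Lines were compared in a fit of all 15 libraries. The script was tested on simulated data. The study tested counts, and limma was used here because the deposited unit is log2. Genes were matched by gene ID, and members, lists and tests were chosen with earlier results of these data known. All 36 members were to be described, with at most 4 called genes per further list and comparison. Alternatives were pseudocount 0.1, no filter, a filter at 5 RPKM, median-of-ratios scaling, replicate block, only the 2 conditions compared, no fold threshold, voom, and leaving out each library. Promoters are those of RefSeq (GRCh38.p14). Python 3.11.15, pandas 2.3.3, scipy 1.17.1 and matplotlib 3.10.9 were used.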

Additional observations from a re-analysis of the deposited data

Results flagged for a closer look

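The responses of some genes differed between MM.1S and RPMI8226 by the test of the difference itself, in the joint limma fit (adjusted p under 0.05). Values are the log2 fold change in MM.1S minus that in RPMI8226. In TSW vs. MONO the difference was below 0 for NFKB2 (-1.21), RELB (-1.17), NFKBIE (-1.01), IKBKE (-0.87), BIRC3 (-1.001), TNFAIP3 (-1.56), TNIP1 (-0.88), TNIP2 (-0.50) and TNFAIP8 (-1.40), and above 0 for SOD2 (1.06). In CO vs. MONO it was below 0 for NFKB2 (-0.97), RELB (-1.31), NFKBIE (-0.88), NFKBIZ (-0.63), IKBKE (-0.77), BIRC3 (-1.47), TNFAIP3 (-1.82), TNIP1 (-0.80), TNIP2 (-0.43), TNFAIP8 (-1.52) and CFLAR (-0.48), and above 0 for CHUK (0.50), TNFAIP2 (0.45) and SOD2 (1.09). The pair of opposite calls was that of TNFAIP3, lower in MM.1S and higher in RPMI8226 in both comparisons. The differences of CHUK and TNFAIP2 in CO passed 0.05 no longer under median-of-ratios scaling (adjusted p = 0.103 and 0.0752 by limma). The log2(RPKM + 1) scale understates the rise of TNFAIP2 in MM.1S, where it had 3 PETs in MONO. No condition held 4 libraries or more, so no test for a single library that stands apart was run on the members' values.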

How the results depend on the processing

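Over the settings other than leaving out a library, called members kept their call in 120 of 126 values in MM.1S and 210 of 212 in RPMI8226. Leaving out each library kept 154 of 171 and 179 of 186. For the differences between lines these were 68 of 70 and 340 of 360, and no direction changed. In RPMI8226 this leaves 1 library in a condition, which is then assumed to vary like the others. Of the alternative settings, shares of all genes called were counted under voom and no fold threshold alone. Member counts under the other settings are thus not read against a background. With the filter at 5 RPKM fewer genes were tested, and the members called in MM.1S TSW were 2 higher and 3 lower. Those called higher in MM.1S CO were 3, and those higher from TSW to CO were 0 in MM.1S and 1 in RPMI8226. Without a filter, and with only the 2 conditions compared, those lower in MM.1S TSW were 3, and the second setting gave 2 higher in MM.1S CO vs. TSW. Without a fold threshold 6 were lower in MM.1S CO (15% of all genes), 7 in RPMI8226 TSW (38%) and 7 in RPMI8226 CO (41.7%), and 8 were higher in RPMI8226 CO vs. TSW (10.1%). Median-of-ratios scaling gave 0 higher in MM.1S CO vs. TSW and 4 higher in RPMI8226 CO vs. TSW, where pseudocount 0.1 and voom also gave 4; the cause was not tested. Leaving out each library in turn gave 3 to 5 lower in MM.1S TSW, 0 to 2 higher in MM.1S CO vs. TSW, and 1 to 4 higher and 0 to 1 lower in RPMI8226 CO vs. TSW. With replicate number as a block, calls numbered 4 higher and 5 lower in MM.1S TSW and 11 and 3 in RPMI8226 TSW, and no call of a member was lost. Same-numbered libraries had deviations correlated at -0.38 to 0.286 in MM.1S, and at 0.164 to 0.271 over the 2 numbers of RPMI8226. TSW and CO cells of 1 well shared medium, but the labels do not say that a number marks a well. Depth limits TNF, NFKBID, LTA, CD83 and EBI3 and also LTB in MM.1S TSW (32 PETs, 3 of them in replicate 2), CD40 in RPMI8226 and IER3 in RPMI8226 MONO (37 PETs).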
